A study of Mus musculus with 8 samples.

Results

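The respiratory chain of mitochondria was examined here through 40 genes of the nuclear genome, in the epididymal fat of mice fed a high-fat diet, a white adipose depot attached to the testis. The genes were taken by symbol: 16 for subunits of complex I, 4 for complex II, 6 for complex III, 1 for cytochrome c, 8 for complex IV and 5 for complex V. Ndufa4 carries a complex I name but is now known as a subunit of complex IV and was counted there. Each symbol was matched exactly to the deposited count table of 31854 rows, which gave 39 genes on 1 row each; Uqcrb was not analysed here. All 39 passed the filter on low counts, among 15667 rows tested.

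The study compared 4 libraries from S273A mice, in which a knock-in replaced serine 273 of PPAR-gamma by alanine, with 4 libraries from wild-type mice (WT). PPAR-gamma is a nuclear receptor, made from Pparg, on which the formation of fat cells depends, and kinases such as Cdk5 can phosphorylate this serine. Both genotypes ate the high-fat diet, and the sources used here give neither age nor strain nor zygosity. S273A libraries carry the replicate numbers 2, 3, 4 and 6 and WT libraries 1, 2, 3 and 5; values of single libraries are given in that order.

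The chain passes electrons from NADH (through complex I) and from succinate (through complex II) to complex III, cytochrome c and complex IV, which reduces oxygen. The protons pumped on the way drive complex V, the ATP synthase. Its subunits come from both genomes: a small core is encoded in mitochondrial DNA and the other subunits in the nucleus, under activators that include NRF1, GABP, the ERR receptors and the coactivator PGC-1alpha. White fat cells hold few mitochondria compared with brown fat cells, but use them for fatty acid and amino acid oxidation and for making fat. The mitochondrially encoded subunits were not analysed here.

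Total counts ran from 16161127 to 18194889 in S273A and from 14880239 to 17266209 in WT, and single member genes had between 80 and 13816 counts in a library. All 12 adipocyte markers examined were detected and tested, while none of the 6 testis and epididymis markers with a row reached the count needed for a test. The knock-in changes a single codon, so the Pparg level, 139.7 ± 18.1 CPM in S273A and 129 ± 15.0 CPM in WT (CPM, counts scaled to a common library size; SD, n = 4 each), does not check the genotype labels. The labels do not say whether the libraries stand for separate mice, so the tests rest on the spread from library to library, which may be technical. In whole tissue, fewer cells of a type and less RNA per cell cannot be told apart.

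None of the 39 respiratory chain genes was called as different between S273A and WT. Of the 39 genes, 34 had a positive log2 fold change, that is, a higher estimate in S273A, and 5 a negative one, where 50.7% of all tested rows had a positive estimate, and 49.9% of the rows at or above the lowest level of the 39. The differences were small: the median log2 fold change was 0.052 over the 39 genes, 1.04-fold, against 0.0015 over all rows, and the estimates ran from -0.041 for Ndufb3 to 0.21 for Atp5o. The 5 negative estimates belonged to Ndufb3, Ndufa5, Cox5b, Cox5a and Cycs. At an adjusted p under 0.05, edgeR's quasi-likelihood test called 0 of the 39 genes and 0% of all rows, with an adjusted p of 0.9999 for each of the 39. At an unadjusted p under 0.05 it counted 0 of the 39, against 1.46% of all rows, and DESeq2 and limma-voom counted 0 of the 39 at either threshold. Over all rows DESeq2 counted 0.00441% at the adjusted and 0.952% at the unadjusted threshold, and limma-voom 0% and 1.42%. In none of the 39 did the S273A libraries lie wholly above or below the WT libraries, a separation that 1.19% of all rows showed.

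The confidence intervals bound how large a difference could have been missed in a single gene. All 39 intervals (95%, not adjusted for the number of genes) included no difference, and all 39 lay within 1.5-fold in either direction. For 36 of the 39 the interval lay within 1.3-fold. The highest upper bound was 1.39-fold, for Atp5o, and the lowest lower bound 0.776-fold, for Ndufb3.

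**Figure D1:**
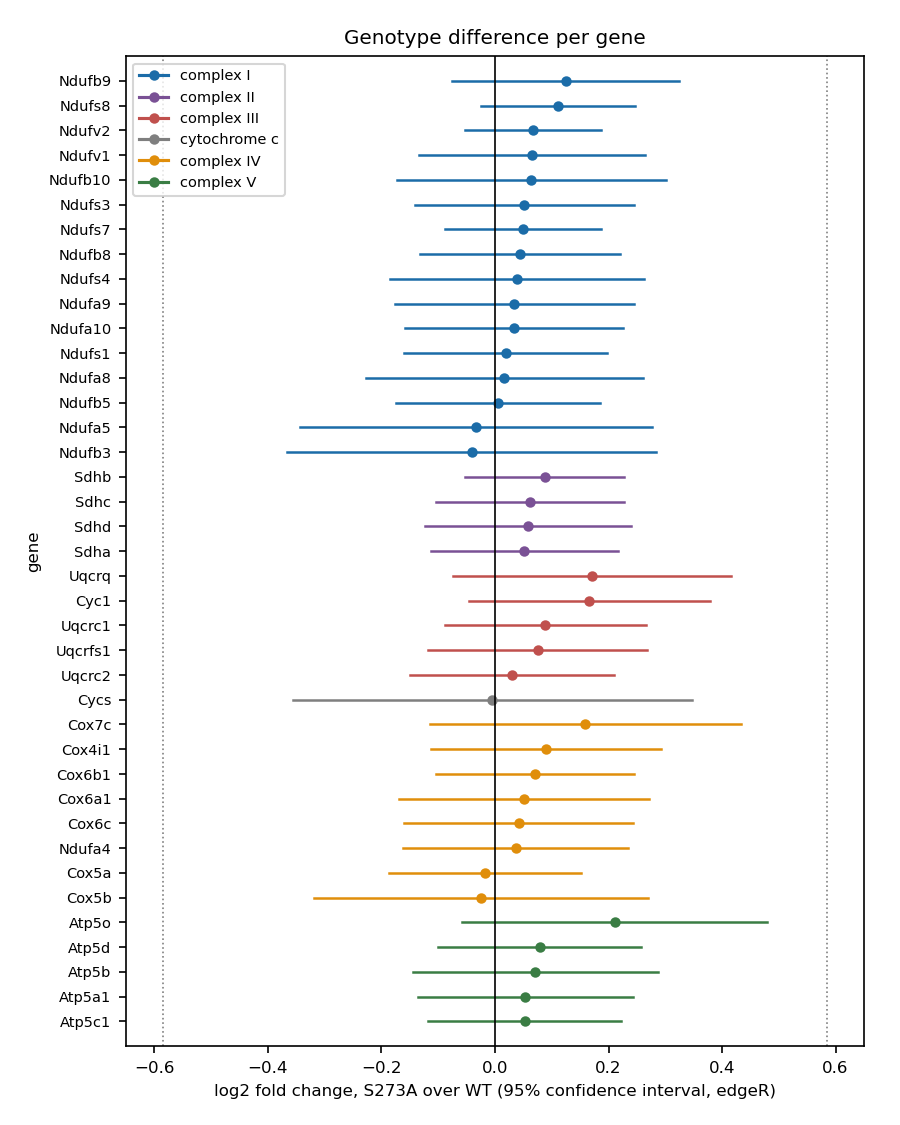
Log2 fold change of S273A over WT for the 39 genes, ordered by complex, with 95% confidence intervals from edgeR; dotted lines mark 1.5-fold in either direction and colours mark the complexes. All 39 intervals cross 0 and lie between the dotted lines, and 34 of the 39 points lie to the right of 0.

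The count of positive estimates depended on single libraries. S273A replicate 4 held the highest of the 8 values for 31 of the 39 genes (79.5%), against 13.2% of all tested rows. WT replicate 2 held the lowest value for 28 of the 39 (71.8%), against 19.9% of all rows. A score, the mean over the genes of log2 CPM after subtracting the 8-library mean of each gene, was 0.0050, -0.11, 0.18 and 0.038 in S273A and -0.051, -0.19, 0.077 and 0.041 in WT, so the genotypes overlapped. Without WT replicate 2, 20 of the 39 estimates were positive and the median was 0.00078. Without S273A replicate 4 there were 23 positive estimates and a median of 0.0083. With both left out, a fit added after the data were seen, 10 of the 39 estimates were positive and the median was -0.052. Both were picked as the extreme libraries of these same genes. A fall in the estimates was thus built into that fit and into the fits without either library. Without S273A replicate 3, the lowest of its genotype, all 39 were positive and the median was 0.099, a rise built in likewise. Leaving out S273A replicate 2 or 6, or WT replicate 1, 3 or 5, gave 33 to 37 positive estimates and medians of 0.048 to 0.093.

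**Figure D2:**
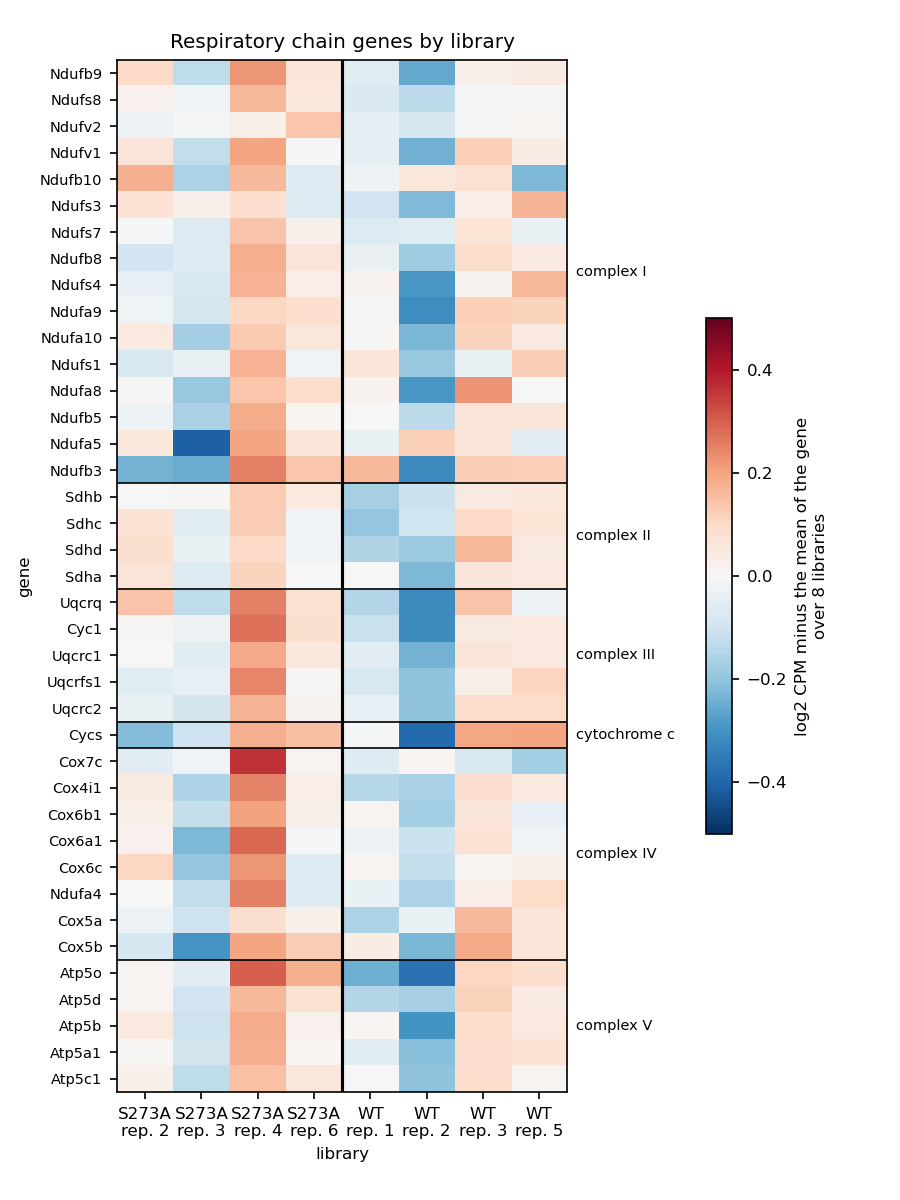
Log2 CPM of each gene after subtracting its 8-library mean, with genes in rows by complex and libraries in columns, S273A to the left of the line and WT to the right. The column of S273A replicate 4 is high in nearly every row and that of WT replicate 2 low in most, and they hold the highest value of 31 genes and the lowest value of 28 genes.

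Marker genes of fat cells were also lowest in WT replicate 2. Of 12 adipocyte markers, such as Adipoq, Plin1 and Lep, 11 had their lowest value there, and their score was 0.20, -0.19, 0.15 and -0.079 in S273A and 0.031, -0.43, 0.24 and 0.076 in WT. The summed level of these markers ran from 10549 to 13354 CPM in S273A and from 9113 to 14245 CPM in WT. The 12 tested macrophage markers had their highest score in that library: it was -0.098, 0.019, -0.10 and 0.016 in S273A and -0.058, 0.20, -0.038 and 0.061 in WT, and their summed level ran from 5970 to 7121 CPM in S273A and from 6653 to 8270 CPM in WT. Endothelial markers, 6 of 6 tested, were also low in WT replicate 2, with a score of -0.34. In S273A replicate 4, the high library of the respiratory chain, 0 of the 12 adipocyte markers had their highest value, and their score was below those of S273A replicate 2 and WT replicate 3. Their summed level there, 13354 CPM, was the highest of S273A but below that of WT replicate 3. The 7 brown and beige fat markers included Ucp1. Their scores were 0.022, -0.18, 0.35 and 0.058 in S273A and 0.28, -0.83, 0.25 and 0.054 in WT. In S273A replicate 4, 1 of the 7 had its highest value. Their summed level was low, at 19.6 to 28.9 CPM in S273A, with 25.5 in replicate 4, and 17.7 to 28.3 CPM in WT. These markers include Cox8b and Cox7a1, themselves subunit genes of complex IV, so the list is not independent of the chain. The 8 mesothelial markers, of the cell layer that covers the depot, had a score of 0.43 in S273A replicate 4, where 7 of the 8 were highest, and of 0.17 in WT replicate 2, and summed to 207 to 285 CPM in S273A and 145 to 240.3 CPM in WT. Red blood cell markers, 7 of 7 tested, had scores of -0.44, -0.34, 0.59 and 1.08 in S273A and -0.12, 0.16, -0.23 and -0.70 in WT, and summed to 297 to 564 CPM in S273A and 272 to 400.5 CPM in WT. The part of these cell types in the respiratory chain values was not tested.

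**Figure D3:**
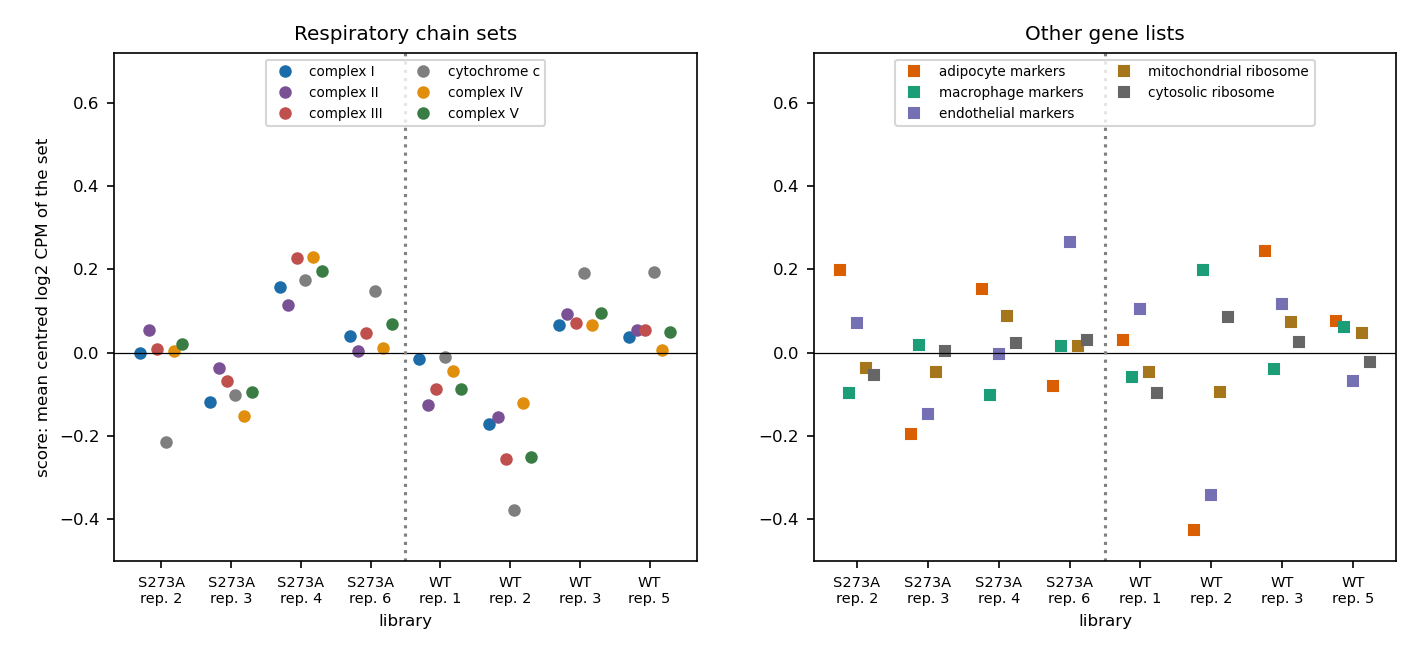
Scores per library, the mean over a set of log2 CPM after subtracting the 8-library mean of each gene, for the respiratory chain sets (left panel) and for other gene lists (right panel), with S273A libraries left of the dotted line. The 5 complexes lie close together in each library, between 0.11 and 0.23 in S273A replicate 4 and between -0.25 and -0.12 in WT replicate 2, where adipocyte markers are at -0.43.

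Complex I takes electrons from NADH. Of its 16 genes, 14 were estimated higher in S273A, and the median log2 fold change was 0.041. Ndufs8 (chromosome 19, 3908863 to 3912774, minus strand), which encodes an iron-sulfur subunit of the arm that reaches into the matrix, was at 34.4, 33.4, 38.0 and 35.1 CPM in S273A libraries, against 32.2, 30.9, 33.6 and 33.7 CPM in WT libraries. It had the smallest p of the 39 genes (log2 fold change 0.11, 95% confidence interval -0.025 to 0.25, unadjusted p 0.0998), and 3 of its 4 S273A libraries exceeded every WT library. Ndufb9 (chromosome 15, 58933756 to 58939488, plus strand), an accessory subunit of the membrane arm, was at 43.7, 37.5, 47.7 and 42.6 CPM in S273A libraries, against 39.3, 34.2, 41.7 and 42.2 CPM in WT libraries. Here too 3 of 4 S273A libraries exceeded the WT maximum, while the fourth, replicate 3, lay below 3 of the WT libraries (log2 fold change 0.12, 95% confidence interval -0.075 to 0.32, unadjusted p 0.194). Ndufv2, an iron-sulfur subunit of the module that binds NADH, was at 57.0, 57.9, 59.5 and 64.0 CPM in S273A libraries, against 56.3, 54.8, 57.8 and 58.6 CPM in WT libraries. Its highest value was in S273A replicate 6, and the groups overlapped (log2 fold change 0.067, 95% confidence interval -0.053 to 0.19, unadjusted p 0.241). At the other end stood Ndufb3, a small accessory subunit of the membrane arm, at 14.4, 14.3, 20.3 and 18.7 CPM in S273A libraries, against 19.0, 13.6, 18.5 and 18.5 CPM in WT libraries. S273A replicates 2 and 3 and WT replicate 2 were its low libraries (log2 fold change -0.041, 95% confidence interval -0.37 to 0.28, unadjusted p 0.783). The remaining 12 genes, from Ndufa5 to Ndufv1, had estimates between -0.033 (Ndufa5) and 0.065 (Ndufv1). Among them are the NADH-binding subunit Ndufv1 and the large iron-sulfur subunit Ndufs1, with an estimate of 0.019.

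Complex II, succinate dehydrogenase, is shared with the citric acid cycle and is encoded wholly in the nucleus. Its 4 genes had 4 positive estimates and a median of 0.059. Sdhb (chromosome 4, 140961203 to 140979193, plus strand), the iron-sulfur subunit, was at 97.0, 97.4, 106 and 100.4 CPM in S273A libraries, against 86.4, 90.0, 100.0 and 101 CPM in WT libraries. All 4 S273A values exceeded the WT median, and WT replicates 1 and 2 were the low libraries (log2 fold change 0.087, 95% confidence interval -0.053 to 0.23, unadjusted p 0.195). Sdha (chromosome 13, 74322254 to 74350280, minus strand), the flavoprotein that oxidises succinate, was at 273, 249, 282 and 261 CPM in S273A libraries, against 261, 224, 272 and 269.9 CPM in WT libraries. WT replicate 2 was lowest and the other WT libraries lay within the S273A range (log2 fold change 0.052, 95% confidence interval -0.11 to 0.22, unadjusted p 0.5). The membrane anchor Sdhc was at 83.8, 76.8, 86.8 and 78.6 CPM in S273A libraries, against 69.7, 74.3, 85.0 and 83.6 CPM in WT libraries. Sdhd, the second membrane anchor, was at 69.6, 64.2, 70.4 and 65.3 CPM in S273A libraries, against 59.4, 57.8, 74.0 and 67.9 CPM in WT libraries. For both anchors WT replicates 1 and 2 lay below the WT libraries 3 and 5, and the estimates were 0.061 and 0.058. Sdhd had its highest value in a WT library, replicate 3.

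Complex III passes electrons from ubiquinol to cytochrome c. All 5 tested genes had positive estimates, and their median of 0.088 was the highest of the 5 complexes. Each of the 5 genes had its highest value in S273A replicate 4 and its lowest in WT replicate 2. Cyc1 (chromosome 15, 76343523 to 76346260, plus strand), cytochrome c1, was at 57.4, 56.2, 69.2 and 60.4 CPM in S273A libraries, against 52.9, 46.0, 59.0 and 59.1 CPM in WT libraries. All 4 S273A values exceeded the WT median, yet S273A replicates 2 and 3 lay below WT replicates 3 and 5 (log2 fold change 0.17, 95% confidence interval -0.047 to 0.38, unadjusted p 0.112). Uqcrq (chromosome 11, 53427922 to 53430831, minus strand), a small subunit that contacts the ubiquinol-oxidising core, was at 30.8, 25.5, 33.3 and 29.4 CPM in S273A libraries, against 25.2, 22.4, 30.8 and 27.4 CPM in WT libraries. Its estimate was the second largest of the 39, and its groups overlapped as well (log2 fold change 0.17, 95% confidence interval -0.073 to 0.42, unadjusted p 0.15). The core subunit Uqcrc1 was at 189, 182, 216 and 196 CPM in S273A libraries, against 183, 161, 198 and 196 CPM in WT libraries. Uqcrfs1, the Rieske iron-sulfur protein, was at 80.3, 81.2, 99.1 and 84.0 CPM in S273A libraries, against 79.1, 72.7, 85.2 and 90.1 CPM in WT libraries. Uqcrc2, the other core subunit, was at 100.3, 96.5, 116 and 104 CPM in S273A libraries, against 99.9, 89.5, 109 and 109.7 CPM in WT libraries. For these 3 genes S273A replicate 4 alone exceeded the WT maximum, and the estimates were 0.088, 0.075 and 0.030.

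Cytochrome c, encoded by Cycs (chromosome 6, 50562563 to 50566538, minus strand), carries electrons from complex III to complex IV. It was at 5.24, 5.68, 6.89 and 6.77 CPM in S273A libraries, against 6.05, 4.66, 6.98 and 6.99 CPM in WT libraries. The difference between the genotype means was smaller than the replicate SD of either genotype (6.15 ± 0.81 CPM in S273A and 6.17 ± 1.10 CPM in WT; log2 fold change -0.0044, 95% confidence interval -0.36 to 0.35, unadjusted p 0.978), and S273A replicates 2 and 3 were low together with WT replicate 2.

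Complex IV, cytochrome c oxidase, reduces oxygen. Its 8 genes had 6 positive estimates and a median of 0.046. Cox4i1 (chromosome 8, 120668222 to 120674207, plus strand), the regulatory subunit of the form found in most tissues, was at 123, 107, 142 and 122 CPM in S273A libraries, against 108, 107, 126 and 123 CPM in WT libraries. S273A replicate 3 lay at the level of WT replicates 1 and 2, and S273A replicate 4 alone exceeded the WT maximum (log2 fold change 0.090, 95% confidence interval -0.11 to 0.29, unadjusted p 0.345). Cox6b1, a subunit that faces the intermembrane space, was at 45.4, 41.0, 51.1 and 45.2 CPM in S273A libraries, against 44.9, 39.5, 46.4 and 43.3 CPM in WT libraries. Its groups overlapped in the same way (log2 fold change 0.070, 95% confidence interval -0.10 to 0.24, unadjusted p 0.389). Cox7c, a small membrane subunit, was at 5.96, 6.13, 7.98 and 6.28 CPM in S273A libraries, against 5.93, 6.26, 5.88 and 5.52 CPM in WT libraries. S273A replicate 4 stood apart from the other S273A libraries, which lay among or close to the WT values (log2 fold change 0.16, 95% confidence interval -0.11 to 0.43, unadjusted p 0.223). Cox5b, a zinc-binding subunit on the matrix side, was at 9.48, 8.21, 11.5 and 11.0 CPM in S273A libraries, against 10.3, 8.59, 11.5 and 10.5 CPM in WT libraries. It had the lowest estimate of complex IV, and S273A replicate 3 was its lowest library (log2 fold change -0.025, 95% confidence interval -0.32 to 0.27, unadjusted p 0.854). The other 4 genes had estimates of 0.051 (Cox6a1), 0.042 (Cox6c), 0.037 (Ndufa4) and -0.018 (Cox5a). WT replicate 2 was the lowest library for 3 of the 8 genes of complex IV, against 5 of 5 in complex III and 5 of 5 in complex V; this difference was not tested.

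Complex V makes ATP. Its 5 genes had 5 positive estimates and a median of 0.071, and each had its highest value in S273A replicate 4 and its lowest in WT replicate 2. Atp5o (chromosome 16, 91925214 to 91931687, minus strand), the subunit of the outer stalk that gives oligomycin sensitivity, was at 51.8, 49.4, 63.1 and 58.0 CPM in S273A libraries, against 43.3, 39.6, 55.1 and 54.3 CPM in WT libraries. It had the largest estimate of the 39 genes, 1.16-fold (log2 fold change 0.21, 95% confidence interval -0.058 to 0.48, unadjusted p 0.111), and all 4 S273A values exceeded the WT median. WT replicates 1 and 2 were low, while WT replicates 3 and 5 exceeded S273A replicates 2 and 3, so the groups overlapped. Atp5b (chromosome 10, 128083273 to 128090391, plus strand), the catalytic beta subunit, was at 721, 650.0, 794 and 709 CPM in S273A libraries, against 703, 568, 743 and 722 CPM in WT libraries. Atp5a1 (chromosome 18, 77773729 to 77782869, plus strand), the alpha subunit that alternates with it in the F1 head, was at 505, 472, 570.2 and 506 CPM in S273A libraries, against 484, 434, 533 and 528 CPM in WT libraries. Both were lowest in WT replicate 2 and highest in S273A replicate 4, and the other libraries of the genotypes overlapped, with estimates of 0.071 and 0.054. The rotor subunit Atp5c1 was at 84.2, 75.7, 91.5 and 86.0 CPM in S273A libraries, against 82.6, 71.9, 87.6 and 83.4 CPM in WT libraries. Atp5d, at the foot of the rotor, was at 83.4, 77.3, 92.8 and 87.0 CPM in S273A libraries, against 74.6, 73.5, 89.3 and 84.9 CPM in WT libraries. Their estimates were 0.052 and 0.079. The 5 complexes thus had medians between 0.041 and 0.088. The pooled standard deviation of their scores within a genotype ran from 0.0997 for complex II to 0.14 for complexes III and V. It describes the spread of single libraries and is not the error of a median, so it does not test the medians.

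Levels were compared between genes as CPM per kilobase of the deposited row length. Atp5b was highest, at 382 ± 31.4 CPM per kilobase in S273A and 364 ± 42.0 in WT (SD, n = 4 each), followed by Atp5a1 at 211 ± 16.9 CPM per kilobase in S273A and 203 ± 18.9 in WT, Cox4i1 at 162 ± 18.4 CPM per kilobase in S273A and 152 ± 13.4 in WT and Uqcrc1 at 118 ± 8.83 CPM per kilobase in S273A and 111 ± 10.3 in WT. The lowest were Cycs at 2.01 ± 0.27 CPM per kilobase in S273A and 2.02 ± 0.36 in WT, Ndufa5 at 10.8 ± 1.82 CPM per kilobase in S273A and 11.0 ± 0.63 in WT and Cox7c at 14.7 ± 2.09 CPM per kilobase in S273A and 13.1 ± 0.67 in WT. Medians over a complex, across all libraries, were 34.3 for complex I, 63.3 for complex II, 56.3 for complex III, 68.5 for complex IV and 89.0 for complex V. The order was mostly gradual. Of the 38 pairs of neighbours in it, 35 overlapped in their range over the 8 libraries; the exceptions were the steps from Atp5b to Atp5a1, from Cox4i1 to Uqcrc1 and from Ndufa5 to Cycs. A level per length depends on the transcript that the row length stands for: the row of Ndufs1 is 6026 bases long, while the annotated transcript nearest to that length has 2661 bases. Replicate spread differed between genes. Coefficients of variation within a genotype ran from 2.93% (Ndufv2 in WT) to 17.8% (Ndufb3 in S273A), with medians of 8.89% in S273A and 9.28% in WT.

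**Figure D4:**
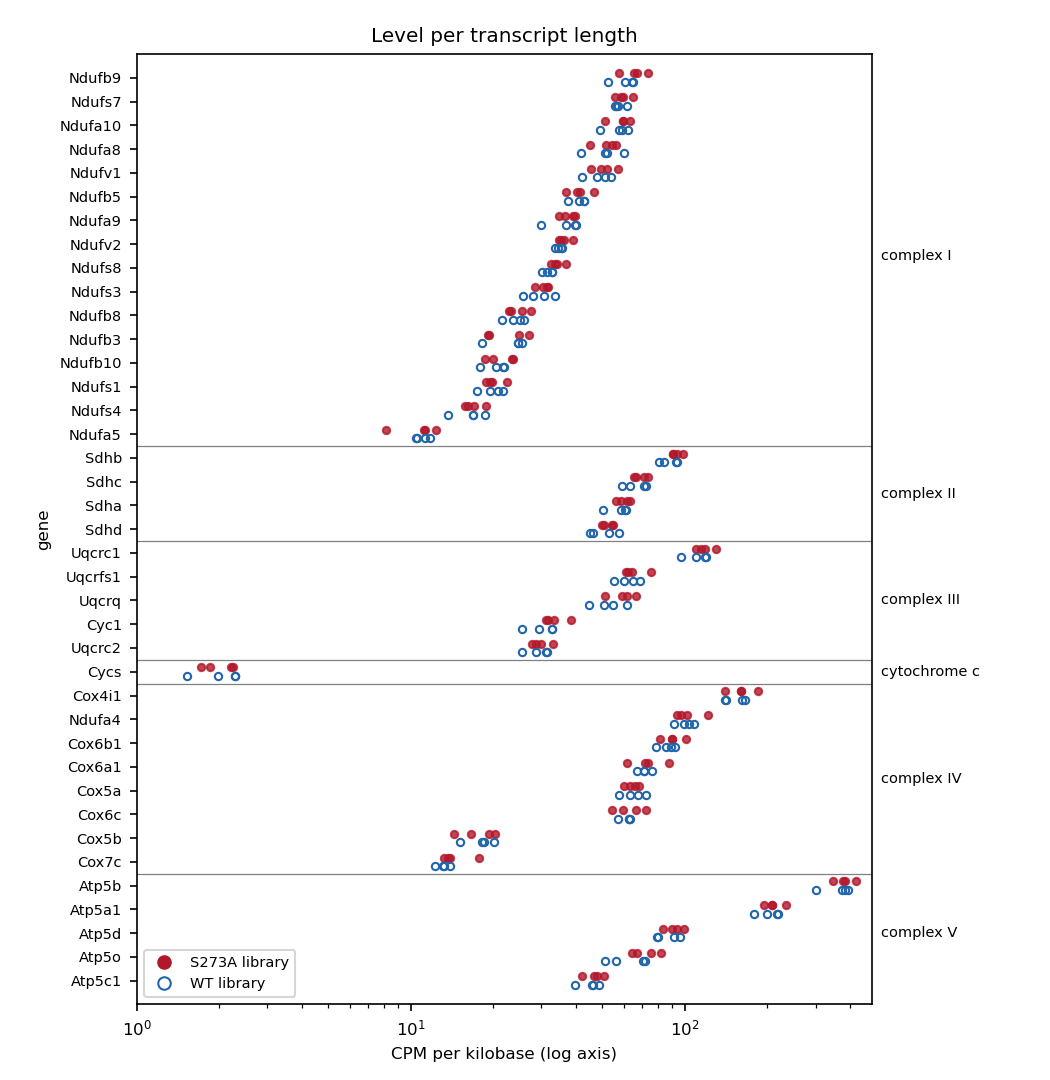
Level of each gene in CPM per kilobase of row length, on a log axis, 1 point per library, with genes ordered by level within each complex and filled S273A points drawn above open WT points. The span runs from about 2.01 for Cycs to about 373 for Atp5b as means over the 8 libraries, and the S273A and WT points of each gene overlap.

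A read of 36 bases cannot be placed on its own where another gene holds the same letters, and respiratory chain genes are known for processed pseudogenes. For each gene, words of 36 bases were taken from its annotated coding transcript nearest in length to the row. The share of these words also present in a transcript of another annotated gene elsewhere was counted (GENCODE release M21 on GRCm38). It was 10% or more in 9 genes: Cox7c (50%), Ndufs3 (44.9%), Cox5b (37.1%), Cycs (31.0%), Atp5o (29.2%), Cox6c (26.3%), Cox6a1 (20.3%), Cox5a (12.3%) and Ndufb3 (11.1%). Their median level was 29.9 CPM per kilobase, against 53.9 for the other 30 genes, and 4 of the 5 negative estimates fell among the 9. Yet Cox6a1, Atp5o, Cox5a and Cox6c, also of the 9, lay above 53.9, at 72.4, 67.1, 64.6 and 62.2. Ndufa5 was at 10.9 CPM per kilobase with 1.79% of shared words. Its words come from a transcript of 315 bases, while its row has 551, so part of the row was not searched. The sources used here do not say how reads with several matches were counted, so the levels of these 9 genes, Atp5o included, are uncertain. The part of shared words in the levels was not tested. The library kit does not keep strand, per the labels' protocols, and 11 of the 39 genes share exon bases with a gene on the opposite strand. These are Ndufa9, Ndufb5, Ndufs1, Ndufs3, Uqcrc2, Cox4i1, Cox5a, Cox6c, Atp5a1, Atp5d and Atp5o, and reads from the shared bases cannot be assigned to either gene. Ndufb8, Ndufb9 and Atp5o share exon bases with an entry on their own strand, which for Atp5o is another annotation entry of the same symbol.

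**Figure D5:**
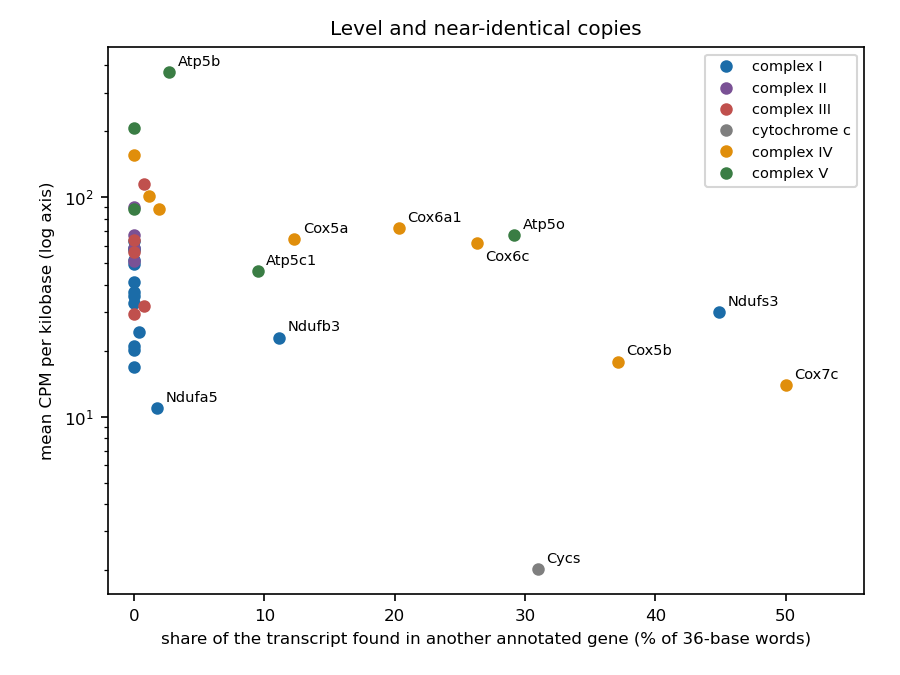
Mean level over the 8 libraries in CPM per kilobase, on a log axis, against the share of a gene's 36-base words found in transcripts of other annotated genes, 1 point per gene coloured by complex. Cycs, Cox7c and Cox5b combine low levels (2.01, 13.9 and 17.8) with shares of 31.0%, 50% and 37.1%. Cox6a1, Atp5o, Cox5a and Cox6c lie higher (72.4, 67.1, 64.6 and 62.2) at shares of 20.3%, 29.2%, 12.3% and 26.3%. Ndufa5 is at 10.9 and 1.79%, counted on a transcript shorter than its row.

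The genes lie on 17 chromosomes, so what they share was sought in their promoters rather than in a common position. RefSeq promoter windows of 300 bases on GRCm38.p6, from 250 bases before the start site to 50 after it, were matched by symbol for 30 of the 39 genes, with 33 windows. The letters GCGCANGCG, a core of sites for the activator NRF1, occurred on either strand in 11 of the 33 windows (33.3%), against 6.25% of all 32851 windows. They were found in Ndufa5, Ndufa8, Ndufb10, Sdha, Sdhd, Uqcrc1, Cycs, Cox6a1, Atp5c1 and Atp5o. The letters AAGATGGCG of the factor YY1, searched like the others on both strands, occurred in 3 windows (9.09%, against 1.40% of all), those of Ndufa9, Ndufs4 and Ndufs7. For CCGGAAGT, the letters of GABP, it was 1 window (Ndufs3; 3.03% against 3.89%), and for TCAAGGTCA, those of the ERR receptors, 1 window (Sdhd; 3.03% against 0.423%). GTCANAGGT, the centre of the repeat bound by PPAR-gamma with its partner RXR, was in 1 window (Sdhb; 3.03% against 1.14%). The ERR and PPAR letters share AGGT and GTCA, but in 0 of the 33 windows did matches of different motifs overlap. These matches are descriptions of letters, not shown sites of binding. The windows below are those with more than 1 match to the NRF1 letters, and that of Atp5o, the gene with the largest estimate; they are read 5′ to 3′ on the strand of the gene, with the matches in capitals. They lie at chr2:36049289-36049588 (Ndufa8, minus strand), chr13:74350191-74350490 (Sdha, minus strand), chr9:108936398-108936697 (Uqcrc1, plus strand), chr5:115348909-115349208 (Cox6a1, minus strand) and chr16:91931581-91931880 (Atp5o, minus strand).
Ndufa8: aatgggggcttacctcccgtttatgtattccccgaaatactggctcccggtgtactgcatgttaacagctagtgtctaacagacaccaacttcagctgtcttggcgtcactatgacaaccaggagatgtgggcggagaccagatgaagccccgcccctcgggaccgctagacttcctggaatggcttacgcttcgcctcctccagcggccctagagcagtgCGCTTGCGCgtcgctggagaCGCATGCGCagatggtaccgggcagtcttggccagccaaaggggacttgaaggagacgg
Sdha: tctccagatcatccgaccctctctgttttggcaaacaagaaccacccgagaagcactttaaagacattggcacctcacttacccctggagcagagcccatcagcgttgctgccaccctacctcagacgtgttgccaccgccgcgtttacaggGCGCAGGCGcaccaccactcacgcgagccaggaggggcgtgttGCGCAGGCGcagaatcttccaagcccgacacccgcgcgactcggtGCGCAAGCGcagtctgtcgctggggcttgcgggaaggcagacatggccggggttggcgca
Uqcrc1: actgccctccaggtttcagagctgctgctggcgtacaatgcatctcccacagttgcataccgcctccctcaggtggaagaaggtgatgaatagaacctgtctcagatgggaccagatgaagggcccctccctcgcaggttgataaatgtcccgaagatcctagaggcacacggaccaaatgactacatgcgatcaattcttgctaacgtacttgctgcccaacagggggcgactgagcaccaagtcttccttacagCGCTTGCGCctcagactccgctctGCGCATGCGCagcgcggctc
Cox6a1: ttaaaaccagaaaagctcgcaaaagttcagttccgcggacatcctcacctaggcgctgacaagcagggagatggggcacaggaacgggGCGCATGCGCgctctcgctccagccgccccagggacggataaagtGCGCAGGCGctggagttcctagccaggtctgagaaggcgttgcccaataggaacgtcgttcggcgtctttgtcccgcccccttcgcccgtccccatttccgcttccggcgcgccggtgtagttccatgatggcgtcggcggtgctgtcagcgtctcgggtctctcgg
Atp5o: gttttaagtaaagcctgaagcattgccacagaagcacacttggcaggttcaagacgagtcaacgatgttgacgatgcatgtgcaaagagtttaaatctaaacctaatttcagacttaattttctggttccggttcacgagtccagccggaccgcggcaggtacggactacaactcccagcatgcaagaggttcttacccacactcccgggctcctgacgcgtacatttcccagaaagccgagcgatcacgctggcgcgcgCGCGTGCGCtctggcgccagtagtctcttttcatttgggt

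Sdha has 3 such matches, and Ndufa8, Uqcrc1 and Cox6a1 have 2 each. The genes did not stand apart in the comparison, with estimates of 0.017 for Ndufa8, 0.052 for Sdha, 0.088 for Uqcrc1 and 0.051 for Cox6a1. The genes of the activators themselves did not pass the test. Nrf1 was at 41.7 ± 3.24 CPM in S273A and 41.1 ± 3.28 CPM in WT (log2 fold change 0.022), Gabpa at 75.1 ± 3.48 CPM in S273A and 76.6 ± 1.84 CPM in WT (-0.030), Yy1 at 69.9 ± 2.58 CPM in S273A and 68.8 ± 3.06 CPM in WT (0.023), Esrra at 44.8 ± 2.95 CPM in S273A and 45.0 ± 3.04 CPM in WT (-0.0060) and Ppargc1a, which encodes PGC-1alpha, at 8.21 ± 2.89 CPM in S273A and 7.83 ± 1.85 CPM in WT (0.066; SD, n = 4 each). Of the 13 tested genes of mitochondrial biogenesis, 7 had positive and 6 negative estimates, with a median of 0.0058, and 0 passed. The smallest p was that of Pprc1, a coactivator related to PGC-1alpha, at 62.1 ± 2.83 CPM in S273A and 57.8 ± 2.95 CPM in WT (log2 fold change 0.10, 95% confidence interval -0.024 to 0.23, unadjusted p 0.102). Nrf1, Yy1 and Esrra, singled out for the letters searched, and Ppargc1a, singled out as the coactivator, were chosen after their values were seen; the other genes follow the rule for named genes.

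The other nuclear subunits differed by similarly small amounts. Of 38 tested subunit genes outside the 40, 26 had positive and 12 negative estimates, with a median of 0.044. Of these, 0 passed, and 1 had an unadjusted p under 0.05, against 1.46% of all rows. That gene was Ndufa13, an accessory subunit of complex I, at 18.4, 18.3, 19.2 and 20.9 CPM in S273A libraries, against 17.3, 16.5, 17.9 and 16.6 CPM in WT libraries. Its 4 S273A libraries lay above all 4 WT libraries (log2 fold change 0.17, 95% confidence interval 0.015 to 0.33, unadjusted p 0.0344; edgeR adjusted p 0.9999). Ndufa12 and Ndufa7, also of complex I, had estimates of 0.20 and 0.12, with overlapping groups. By complex, 13 of 20 estimates were positive for complex I, 3 of 3 for complex III, 3 of 4 for complex IV and 7 of 11 for complex V. Their score was 0.017, -0.12, 0.14 and 0.029 in S273A and -0.095, -0.12, 0.11 and 0.034 in WT. S273A replicate 4 was the highest, while S273A replicate 3 and WT replicates 1 and 2 were all low, and 15 and 13 of the 38 genes had their highest value in S273A replicate 4 and their lowest in WT replicate 2. Assembly factors, which build the complexes without belonging to them, had 21 positive and 16 negative estimates in 37 genes, with a median of 0.025, and 0 passed. Ecsit, an assembly factor of complex I, separated the genotypes at 19.2, 18.8, 20.0 and 19.5 CPM in S273A libraries, against 18.4, 17.6, 18.1 and 17.1 CPM in WT libraries (log2 fold change 0.13, 95% confidence interval -0.010 to 0.26, unadjusted p 0.0662). Such a separation was seen in 1 of the 38 other subunit genes, in 1 of the 37 assembly factors and in 1.19% of all rows. Cox14, which helps make complex IV, was at 24.4, 25.6, 26.3 and 25.5 CPM in S273A libraries, against 23.2, 21.6, 23.9 and 24.8 CPM in WT libraries. Cox10, which takes part in making the haem of complex IV, was at 20.0, 19.2, 17.1 and 19.7 CPM in S273A libraries, against 17.1, 17.3, 17.6 and 17.1 CPM in WT libraries. Atpif1, the inhibitor of complex V, was at 10.3, 10.6, 10.6 and 9.78 CPM in S273A libraries, against 9.55, 11.0, 9.78 and 10.4 CPM in WT libraries. All 3 overlapped between genotypes, with estimates of 0.12, 0.13 and 0.020.

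Genes of other mitochondrial functions, such as the citrate synthase and porin genes, had 15 positive and 5 negative estimates of 20, with a median of 0.029. Among them the smallest p belonged to Vdac3, a porin, at 21.9 ± 1.26 CPM in S273A and 23.1 ± 1.01 CPM in WT (-0.075). The mitochondrial ribosome had 10 positive and 8 negative estimates of 18, with a median of 0.024, and the cytosolic ribosome 15 and 11 of 26, with a median of 0.0051. None of these genes passed. The high score of S273A replicate 4 and the low score of WT replicate 2 were not confined to the chain: they were 0.095 and -0.14 for the other mitochondrial genes, 0.087 and -0.093 for the mitochondrial ribosome, and 0.11 and -0.10 for the assembly factors. For the cytosolic ribosome they were 0.023 and 0.086.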

How the data were processed

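Raw gene counts were deposited by the authors as 1 table with 1 column per library and, per the file headers, a length in bases for each row. RNA was freed of ribosomal RNA, made into non-directional libraries and read as pairs of 36 bases, per the labels' protocols. The submitters' processing notes name build mm10 and, with no order or role, the tools featureCounts 1.5.2, HISAT2 2.0.5, bcl2fastq 2.20.0, edgeR 3.3.0 and Picard 2.9.2. The row identifiers have the form of UCSC gene identifiers, but the sources used here do not name the annotation or its release. The treatment of duplicates and of multiply matching reads is not given either.

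Of 31854 rows, 15667 passed edgeR's filterByExpr, and 9146 rows had no count. S273A was compared with WT in edgeR 4.0.16 (R 4.3.3) with TMM factors, a quasi-likelihood test and Benjamini-Hochberg adjustment over all tested rows, with 4 libraries per genotype and no covariate. The alternatives were DESeq2 1.42.0, limma-voom (limma 3.58.1), other scaling factors, no filter, rows of a repeated symbol summed, each library left out and a replicate block. CPM used TMM-scaled library sizes, and log2 CPM a prior count of 2. No library pair agreed within sampling noise; the lowest chi-square per degree of freedom was 5.53. Positions come from GENCODE M21 on GRCm38 and promoters from RefSeq on GRCm38.p6.

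The genes and gene lists were chosen with earlier results of these data known. Values in every library are given, per complex, for the 3 smallest unadjusted p, the lowest estimate and the highest level per length (all genes where 5 or fewer were tested), and for other lists for up to 3 genes with the smallest p.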

Additional observations from a re-analysis of the deposited data

Results flagged for a closer look

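Within a genotype, a library was flagged where its gap to the nearest other library, divided by the range of the 4, passed Dixon's critical value at the 95% level. This held in 8 of 176 groups of 4 libraries, and chance flags about 1 in 20. Among the respiratory chain genes, Cox7c in S273A had 1 library, replicate 4, at 7.98 CPM and the others at 5.96 to 6.28 CPM (ratio 0.846). Ndufb3 in WT had replicate 2 at 13.6 CPM and the others at 18.5 to 19.0 CPM (ratio 0.897). Cox6c in WT had 1 library at 28.7 CPM and the others at 31.5 to 31.7 CPM (ratio 0.921).

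Among the other subunits, Usmg5 of complex V in S273A had 1 library at 2.79 CPM and the others at 3.49 to 3.62 CPM (ratio 0.841). Uqcrh of complex III in WT had 1 library at 27.7 CPM and the others at 30.6 to 31.1 CPM (ratio 0.842). Of the cytosolic ribosome, Rps14 in S273A had 1 library at 106.7 CPM against 110.4 to 110.6 CPM in the others (ratio 0.951), and Rplp1 in S273A had 1 at 89.6 CPM against 96.2 to 97.3 CPM (ratio 0.849). Rps16 in WT had 1 library at 70.7 CPM and the others at 61.8 to 62.6 CPM (ratio 0.917).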

How the results depend on the processing

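Counting Ndufa4 with complex I gave medians of 0.038 for complex I and 0.051 for complex IV. Under the other 16 alternatives, 368 estimates of the 23 genes given by library were computed; 334 kept their sign, 34 took the other, and 0 passed the threshold. The smallest adjusted p of any of the 39 genes was 0.9991. Without WT replicate 3, 2 of the 39, Uqcrq and Atp5o, had an unadjusted p under 0.05, against 1.62% of all rows. DESeq2 called 1 row, Gdf3, as did the fit without both WT replicate 2 and S273A replicate 4; with 1 library left out the count was 0 to 1. Of the 39 estimates, 10 were positive with both libraries left out (median -0.052) and 20 to 39 with 1 left out (median 0.00078 to 0.099). Medians with 1 library left out ran from -0.0080 to 0.087 for complex I, 0.022 to 0.11 for complex II, 0.028 to 0.13 for complex III, -0.037 to 0.12 for complex IV and -0.0033 to 0.12 for complex V. Estimates did so from -0.14 to 0.038 for Ndufb3, -0.12 to 0.065 for Cycs, -0.0095 to 0.090 for Sdha, -0.028 to 0.073 for Uqcrc2, -0.10 to 0.068 for Cox5b, -0.0084 to 0.12 for Atp5b, -0.0033 to 0.11 for Atp5c1 and -0.0043 to 0.099 for Atp5a1. Cycs was at 0.0030 with upper-quartile factors and 0.0074 with limma-voom. Leaving out WT replicate 2, S273A replicate 4 or both, picked for their extreme values in these genes, lowers estimates by design and is no independent check. With both libraries left out, estimates were -0.014 for Sdhd, -0.038 for Sdha, -0.022 for Uqcrc1, -0.052 for Uqcrfs1, -0.083 for Uqcrc2, -0.021 for Cox4i1, -0.032 for Cox6b1, -0.0070 for Atp5d, -0.060 for Atp5b, -0.045 for Atp5c1 and -0.059 for Atp5a1. The cause of the changes with single libraries was not tested.

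Replicate numbers 2 and 3 occur in both genotypes, and the labels state no pairing. The deviations of the libraries that share a number correlated at -0.099 and -0.28, which cannot settle whether they are paired. With the replicate block 23 of the 39 estimates were positive (median 0.011) and 0 rows were called. Uqcrc2 was at -0.0068, Cox7c at -0.0056, Cox4i1 at -0.015 and Atp5d at -0.014. In that fit the genotype estimate rests on the libraries numbered 2 and 3 alone, since the other numbers occur in a single genotype. It is therefore a weak check, and the absence of called rows says little. The intervals of single genes had a median half-width of 0.19 on the log2 scale.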

Other observations

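Of the 9 tissue-restricted isoforms of respiratory subunits, 6 were tested. Cox8b, the form of a complex IV subunit found in muscle and brown fat, was at 3.23, 3.04, 3.68 and 3.14 CPM in S273A libraries, against 3.20, 1.02, 3.97 and 3.64 CPM in WT libraries, so WT replicate 2 lay below every other library. Cox6a2, another muscle form, was at 0.84, 0.90, 1.44 and 1.72 CPM in S273A libraries, against 1.25, 0.91, 1.23 and 1.00 CPM in WT libraries, and Cox6b2, a testis form, at 0.72, 0.51, 0.69 and 0.37 CPM in S273A libraries, against 0.24, 0.45, 0.62 and 0.70 CPM in WT libraries. Neither isoform separated the genotypes, and 0 of the 6 passed the test, with unadjusted p of 0.59 for Cox6a2 and 0.605 for Cox6b2. Ucp1, the proton channel of brown and beige fat that lets the respiratory chain run without making ATP, was at 0.06, 0.39, 0.63 and 0.25 CPM in S273A libraries, against 1.07, 0.00, 0.68 and 0.65 CPM in WT libraries, with an unadjusted p of 0.319. Its log2 fold change was -0.83, while those of Cidea and Elovl3, also low in level, were 0.59 and 0.83. Of the 7 brown and beige fat markers 4 had positive and 3 negative estimates, and 0 passed.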
